A study of Rattus norvegicus with 12 samples.

Results

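Ribosome biogenesis factors are the nucleolar proteins that make, modify and assemble the ribosome before it is exported to the cytoplasm. The set described here holds 39 gene symbols. It was put together because Rrs1, an assembly factor of the large subunit, was among the genes with the lowest anti-miR-182 minus placebo difference at day 2, and the other symbols were listed as nucleolar factors of the same process. A row with exactly 1 of these symbols was found for 35 of the 39, out of 18166 genes measured. Npm1 lay only on a row shared with Npm1-ps9, and Bysl, Rrp12 and Dkc1 are not listed in the annotation used here. All 35 had a mean signal above the lower quartile of all genes, 5.47 on the log2 scale, so no filter on dim genes was applied.

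The study profiled rat kidney on 12 arrays, 1 for each of 12 coded animals, after ischemia-reperfusion injury (IRI), a period without renal blood flow followed by its return. The 4 groups of 3 arrays are anti-miR-182 at day 7, placebo at day 7, anti-miR-182 at day 2 and placebo at day 2, with the days counted from injury. Anti-miR-182 is an inhibitor of the microRNA miR-182, and placebo is the control treatment. Every group had been injured and no uninjured kidney was analysed here, so values are relative to other injured kidneys. The sources used here do not give strain, age, sex, inhibitor dose or time of dosing. Each title gives day 2 or day 7 although the description speaks of a zero-hour biopsy, and the groups follow the titles. The RNA came from kidney tissue. Of the 6 tubule genes listed, Umod, which encodes uromodulin, had signals of 11.19 to 11.95 over the 12 arrays. Lrp2, the endocytic receptor megalin, had 10.97 to 11.76, and Slc34a1, a phosphate transporter, had 9.28 to 10.48. Slc12a1 and Slc12a3 had 10.36 to 11.68 and 7.97 to 10.21. These genes lay above the upper quartile of all genes at 7.62, and Aqp2, at 7.09 to 8.03, lay on both sides of it. In tissue with several cell types, fewer cells of a type and less RNA per cell cannot be told apart.

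As background, RNA polymerase I transcribes the long precursor of ribosomal RNA in the nucleolus. Small nucleolar ribonucleoproteins (snoRNPs) of the box C/D and box H/ACA kinds guide methylation and pseudouridylation of that RNA, and large sets of assembly factors fold, cut and package it with ribosomal proteins into the small and the large subunit. Growing and dividing cells make many ribosomes, and the transcription factor Myc is known to drive many of these genes. Surviving tubule cells divide during repair after kidney injury.

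The inhibited microRNA is shown with its seed, bases 2 to 8, in capitals, since this is the stretch by which a microRNA recognises its targets. Its sequence, from RefSeq on GRCr8, lies on the minus strand at chr4:59752249-59752273.
rno-miR-182: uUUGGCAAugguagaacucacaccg

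Promoters, from 250 bases before to 50 after the gene's start, were taken from RefSeq (GRCr8) for 32 of the 35 measured factors, all but Rrs1, Bop1 and Wdr43. Both strands were searched for CACGTG, the E-box bound by Myc with Max, which reads the same on both strands, and for CCGGAAG, the core bound by the ETS factor GABPA. CACGTG was found in 10 of the 32 promoters, 31.2%, against 7.85% of 14564 promoters of genes on the array. CCGGAAG was found in 14 of the 32, 43.8%, against 12.6% of the same 14564. The 32 promoters were rich in CpG, with a median of 22.5 CpG (11 to 34) against 15 for genes on the array, and among the 8690 array promoters with at least 11 CpG 10.8% held CACGTG and 19.5% held CCGGAAG. Fbl, Ebna1bp2, Nop2, Tsr1 and Ltv1 held both. Of the factors described below, 3 are shown: Nop2 and Tsr1, which hold both motifs, and Nhp2, which holds CCGGAAG alone and had the second lowest day 2 difference after Rrs1. All 3 lie on the plus strand, at chr4:159618716-159619015 for Nop2, chr10:60258540-60258839 for Tsr1 and chr10:36377770-36378069 for Nhp2, and capitals mark the motif letters.
Nop2: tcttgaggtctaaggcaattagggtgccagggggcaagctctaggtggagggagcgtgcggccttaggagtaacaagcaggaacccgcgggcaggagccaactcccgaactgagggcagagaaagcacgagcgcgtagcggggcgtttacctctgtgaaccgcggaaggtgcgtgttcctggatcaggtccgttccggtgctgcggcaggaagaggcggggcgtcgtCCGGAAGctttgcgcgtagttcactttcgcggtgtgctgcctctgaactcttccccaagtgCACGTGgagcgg
Tsr1: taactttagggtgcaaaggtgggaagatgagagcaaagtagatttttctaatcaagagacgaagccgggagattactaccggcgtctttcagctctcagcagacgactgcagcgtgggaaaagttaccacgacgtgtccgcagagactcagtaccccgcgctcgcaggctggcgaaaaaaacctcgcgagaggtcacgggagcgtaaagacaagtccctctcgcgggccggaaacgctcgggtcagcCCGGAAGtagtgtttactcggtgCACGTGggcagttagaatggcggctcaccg
Nhp2: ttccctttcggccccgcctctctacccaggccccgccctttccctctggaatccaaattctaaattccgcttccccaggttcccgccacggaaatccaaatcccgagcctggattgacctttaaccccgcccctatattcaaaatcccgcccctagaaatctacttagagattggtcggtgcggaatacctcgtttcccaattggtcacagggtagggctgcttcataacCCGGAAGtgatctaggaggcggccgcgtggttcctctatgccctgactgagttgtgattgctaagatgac
These matches are letters in a window and describe no binding. The median anti-miR-182 minus placebo log2 difference at day 2 was −0.07 over the 10 factors with CACGTG and −0.16 over the 22 without it, and −0.14 over the 14 factors with CCGGAAG and −0.11 over the 18 without it.

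At day 2, most of the factors were lower in anti-miR-182 kidneys than in placebo kidneys: the log2 difference was below 0 for 31 of 35, where it was below 0 for 41.3% of all genes. The median difference was −0.13, against 0.03 over all genes. Without Rrs1, 30 of 34 lay below 0, with a median of −0.12. Because Rrs1 led to the choice of the set in this contrast, the values of the day 2 treatment contrast are a description with no test. Over all 18166 genes, limma with Benjamini-Hochberg adjustment called 0%, and 4.2% of genes were higher and 2.41% lower at an unadjusted p under 0.05. The anti-miR-182 signals of 8 factors (Rrs1, Nhp2, Wdr74, Nop2, Nop58, Nop16, Wdr43 and Polr1a) all lay below their placebo signals, while 4.24% of all genes separated in that direction. Without Rrs1 the count was 7 of 34. No factor separated the other way, against 8.06% of all genes.

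Rrs1, which in yeast works with Rpf2 to bring the ribonucleoprotein of Rpl5 and Rpl11 into the early large subunit, had signals of 7.02, 6.86 and 7.07 in anti-miR-182 kidneys, against 7.61, 7.84 and 7.87 in placebo kidneys. The groups were separate, and the difference of −0.79 ± 0.13 (SE, n = 3 each), a ratio of 0.578, was 13th from the lowest of 18166 genes. Rpf2 had signals of 8.83, 8.65 and 9.08 in anti-miR-182 kidneys and 9.03, 9.47 and 9.10 in placebo kidneys, groups that overlap, with a difference of −0.35 ± 0.21. Rpl5 differed by −0.41 ± 0.19, also with overlap, and Rpl11 by −0.11 ± 0.11.

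Among the snoRNP proteins, Nhp2, a core protein of box H/ACA particles, had 7.44, 7.54 and 7.22 in anti-miR-182 kidneys and 7.90, 7.96 and 7.74 in placebo kidneys. The groups did not overlap, and the difference was −0.46 ± 0.16. Nop58, a core protein of box C/D particles, had 9.20, 9.36 and 9.22 in anti-miR-182 kidneys and 9.49, 9.50 and 9.64 in placebo kidneys, a difference of −0.29 ± 0.13. Its box C/D partners differed less: Nop56 by −0.21 ± 0.16 and the methyltransferase Fbl by −0.022 ± 0.17. Gar1, another box H/ACA protein, differed by −0.075 ± 0.13. A second, dimmer row of Nop56 gave −0.55.

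Of the large subunit factors, Nop2, a methyltransferase of ribosomal RNA, had 7.60, 7.76 and 7.33 in anti-miR-182 kidneys and 7.91, 7.92 and 7.92 in placebo kidneys. Its placebo signals were nearly equal, the anti-miR-182 signals were lower and more spread, and the difference was −0.35 ± 0.12. Wdr74 had 7.47, 7.29 and 6.81 in anti-miR-182 kidneys and 7.55, 7.56 and 7.54 in placebo kidneys, a difference of −0.36 ± 0.16 that was −0.17 without anti-miR-182 replicate 3. Rrp1b had 6.76, 6.91 and 6.24 in anti-miR-182 kidneys and 7.13, 6.80 and 7.06 in placebo kidneys. These groups overlapped, and the Rrp1b difference of −0.36 ± 0.19 was −0.16 without the same replicate. The other large subunit factors ran from −0.27 for Nip7 to 0.09 for Nle1, with 2 of the 13 above 0.

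The PeBoW complex, which is needed for large subunit processing, had differences of −0.25 ± 0.12 for Pes1, −0.20 ± 0.16 for Wdr12 and 0.02 ± 0.16 for Bop1 at day 2, and that of Bop1 was −0.03 after quantile normalization. Polr1a and Polr1b, the core subunits of RNA polymerase I, differed in sign. Polr1a had 6.97, 7.02 and 6.96 in anti-miR-182 kidneys and 7.10, 7.12 and 7.19 in placebo kidneys, a difference of −0.15 ± 0.10. A second, dimmer row of Polr1a gave −0.024. Polr1b had 6.27, 6.37 and 6.12 in anti-miR-182 kidneys and 6.24, 5.997 and 6.24 in placebo kidneys, and its difference of 0.10 ± 0.13 was the highest of the set. The nucleolar scaffold and chaperone proteins Nolc1, Gnl3 and Ncl differed by −0.23, −0.19 and −0.084, and all 8 small subunit factors lay below 0, from −0.27 for the nuclease Nob1 to −0.035 for Rrp9, a protein of the U3 snoRNP.

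**Figure D1:**
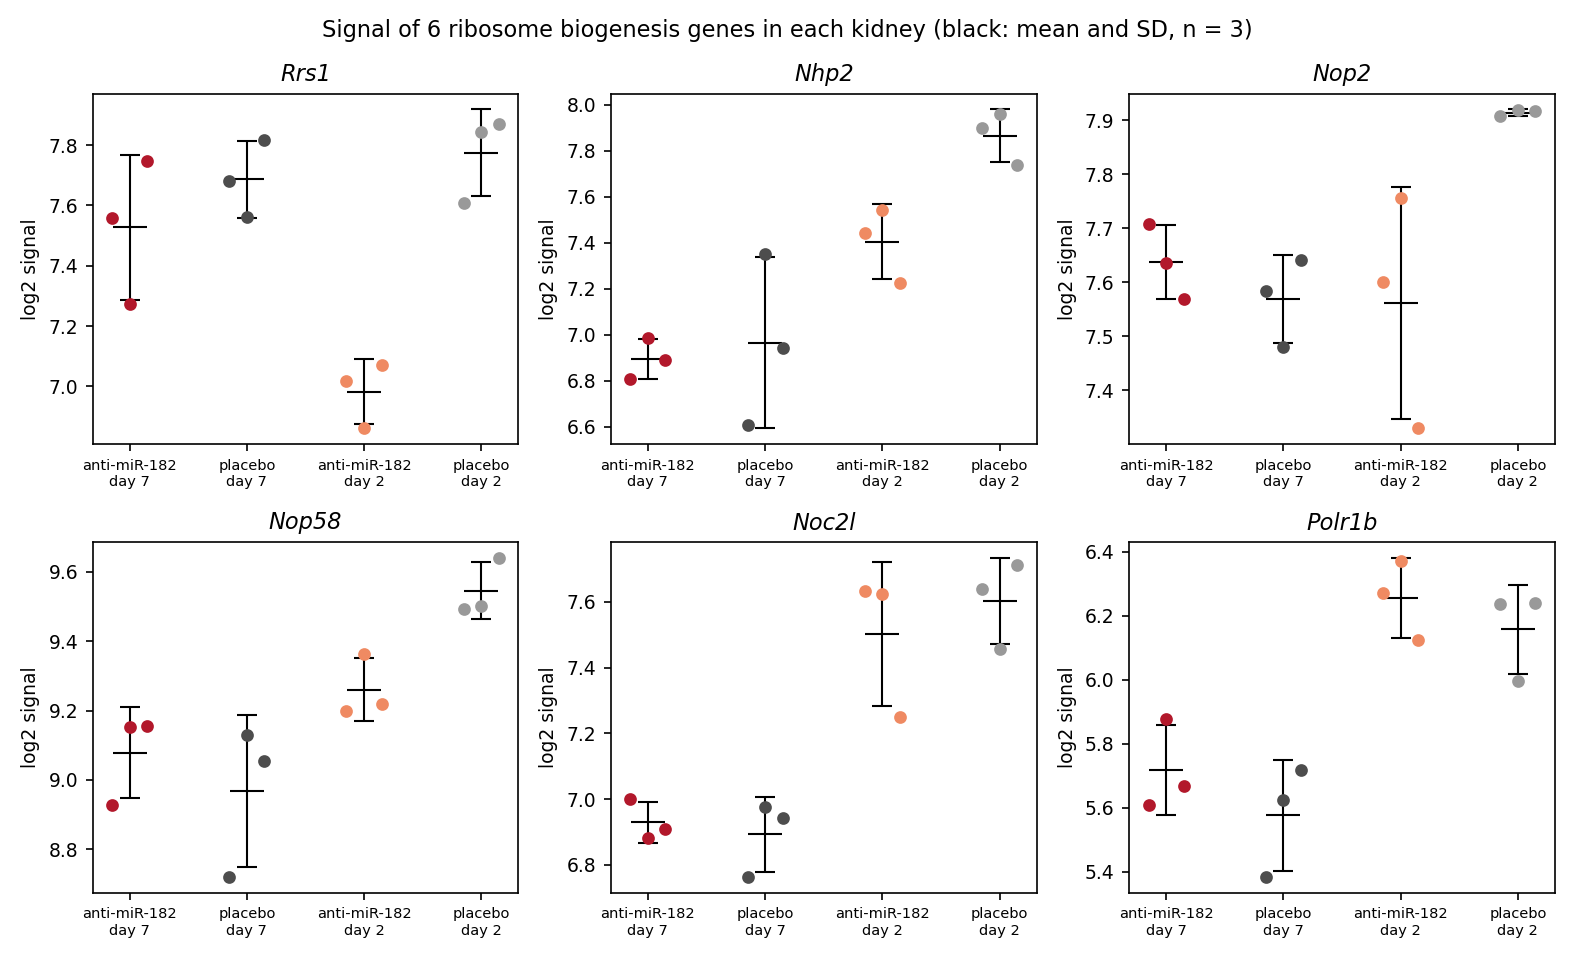
Log2 signal of Rrs1, Nhp2, Nop2, Nop58, Noc2l and Polr1b on each array, with 1 dot per animal, grouped by treatment and day. At day 2 the anti-miR-182 dots of Rrs1, Nhp2, Nop2 and Nop58 lie below all placebo dots, and Polr1b and Noc2l are lower at day 7 than at day 2 in both treatments.

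The 3 anti-miR-182 arrays of day 2 were not alike. Against the placebo mean of the day, 28, 18 and 31 of the 35 factors were lower in replicates 1, 2 and 3, where 45.9%, 33.2% and 49.9% of all genes were lower. The median SD of a factor was 0.192 in anti-miR-182 kidneys and 0.0928 in placebo kidneys, and that of all genes was 0.179 and 0.112. Replicate 3 stood apart on the second principal component of all genes, at −29.4 where the other 11 arrays lay between −9.18 and 15.4. Without it 26 of 35 factors lay below 0, and without replicate 2 the count was 33 and the median −0.21. The mean of the factors minus the mean of all genes, a score in log2 units, was 0.944, 1.04 and 0.902 in anti-miR-182 kidneys and 1.11, 1.16 and 1.18 in placebo kidneys. Without Rrs1 the score was 0.960, 1.07 and 0.915 in anti-miR-182 kidneys and 1.11, 1.16 and 1.18 in placebo kidneys.

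Genes of proliferation were also mostly lower at day 2, with 15 of 16 below 0 and a median of −0.28. Their score was 1.87, 2.17 and 1.68 in anti-miR-182 kidneys and 2.23, 2.11 and 2.27 in placebo kidneys, and its part in the values of the biogenesis factors was not tested. The 3 measured endothelial genes all lay above 0, with a score of 2.57, 2.19 and 2.37 in anti-miR-182 kidneys and 2.11, 2.03 and 2.02 in placebo kidneys. The score groups were separate. Tek, an endothelial receptor kinase, differed most, by 0.79 ± 0.15, and was the only 1 of the 3 with separate groups. The groups of Emcn and Cdh5 overlapped. Of the 6 tubule genes 5 lay above 0, with a score of 3.64, 3.61 and 3.45 in anti-miR-182 kidneys and 3.41, 3.55 and 3.42 in placebo kidneys, groups that overlap. The part of endothelium and tubule in the biogenesis values was not tested either. Mki67, a marker of dividing cells, differed by −0.22 ± 0.21. Myc had 7.50, 7.33 and 6.80 in anti-miR-182 kidneys and 7.77, 7.41 and 7.70 in placebo kidneys, groups that overlap, with a difference of −0.42 ± 0.19. The 10 measured genes of the MYC network had a median of 0.06, with 3 below 0, and of −0.011 after quantile normalization.

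Genes of the same process outside the set were listed from general knowledge, as RNA polymerase I factors, small subunit factors, large subunit factors and snoRNP factors, of which 95 were measured. At day 2, 73 of the 95 lay below 0, with a median of −0.07. Znhit6, a snoRNP assembly factor, differed by −0.51 ± 0.14, Ddx52, an RNA helicase, by −0.50 ± 0.21, and Senp3, a nucleolar SUMO protease, by −0.42 ± 0.11, each with separate groups. With anti-miR-182 lower, 13 of the 95 had separate groups, against 4.24% of all genes. In the other direction 2 did, against 8.06%. Of the ribosomal proteins, 56 of 78 were measured and 50 lay below 0, with a median of −0.20. Their score was 3.32, 3.24 and 3.26 in anti-miR-182 kidneys and 3.45, 3.52 and 3.48 in placebo kidneys. Rpl18 differed by −0.49 ± 0.15 and Rplp0, the base of the ribosomal stalk, by −0.42 ± 0.12, both with separate groups. Of the 56, 20 were separate with anti-miR-182 lower and 0 with it higher, against the same 4.24% and 8.06%.

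At day 7, on arrays not used to pick Rrs1, treatment differences of the same factors were small and lay on both sides of 0. The other members were listed with earlier results of these data known. No factor was called by limma (0 of 35), 0% of all 18166 genes were called in either direction, and 0 factors had an unadjusted p under 0.05, against 1.61% of all genes higher and 1.66% lower. The difference was above 0 for 20 factors and below 0 for 15, and its median was 0.016, against −0.0008 over all genes. Below 0 lay 50.2% of all genes.

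Rrs1 had 7.56, 7.27 and 7.75 in anti-miR-182 kidneys and 7.68, 7.56 and 7.82 in placebo kidneys at day 7. The groups overlapped, with a difference of −0.16 ± 0.13 (SE, n = 3 each; limma, adjusted p = 0.999) that was −0.03 without anti-miR-182 replicate 2 and −0.27 without replicate 3. Nhp2 had 6.81, 6.98 and 6.89 in anti-miR-182 kidneys and 6.61, 7.35 and 6.94 in placebo kidneys, a difference of −0.072 ± 0.16. Nop58 and Nop2 differed by 0.11 ± 0.13 and 0.069 ± 0.12. Nhp2, Nop58 and Nop2 each lay within 1 SE of 0 at day 7.

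The factor with the lowest day 7 difference was Rrp9, with 6.38, 6.08 and 6.45 in anti-miR-182 kidneys and 6.45, 6.49 and 6.53 in placebo kidneys. It was the only factor with separate groups, and its difference was −0.19 ± 0.12, and −0.075 without anti-miR-182 replicate 2. In that direction 3.75% of all genes separated, and 3.5% in the other, where no factor did. Gnl3, a nucleolar GTPase, differed by −0.13 ± 0.13 (−0.086 without placebo replicate 2) and Ppan by −0.10 ± 0.13 (−0.053 without anti-miR-182 replicate 1). The highest was Ebna1bp2, a large subunit factor, with 7.93, 8.13 and 8.02 in anti-miR-182 kidneys and 7.45, 7.99 and 7.92 in placebo kidneys, a difference of 0.24 ± 0.16 that was 0.07 without placebo replicate 1. Bop1, Gar1 and Polr1b differed by 0.22 ± 0.16, 0.19 ± 0.13 and 0.14 ± 0.13, all with overlapping groups and an adjusted p of 0.999 in limma. Bop1 lay at 0.039 without anti-miR-182 replicate 2, and Gar1 and Polr1b at 0.096 and 0.047 without placebo replicate 1.

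Placebo replicate 1 was low at day 7: 31 of the 35 factors lay below their placebo mean on it, where 58.4% of all genes did. The score of the factors was 0.979, 1.03 and 1.03 in anti-miR-182 kidneys and 0.864, 1.07 and 1.02 in placebo kidneys. Without that replicate the difference of the mean scores was −0.03, against 0.03 with it. Placebo replicate 2 had a score of 1.86 for 6 macrophage genes. The other placebo kidneys had 0.452 and 0.794, and anti-miR-182 kidneys had 0.492 to 0.592. All 6 macrophage genes lay below 0 at day 7, with a median of −0.41. So did all 6 fibroblast genes, with a median of −0.43. Fibroblast scores were 1.39 to 1.61 in anti-miR-182 kidneys and 1.68 to 2.61 in placebo kidneys, with no overlap. The part of these cells in the values of the biogenesis factors was not tested. Of the 95 other biogenesis factors 65 lay above 0, with a median of 0.04, and of the 56 ribosomal proteins 35 lay below 0, with a median of −0.03. None of these genes was called in limma (smallest adjusted p = 0.999).

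**Figure D2:**
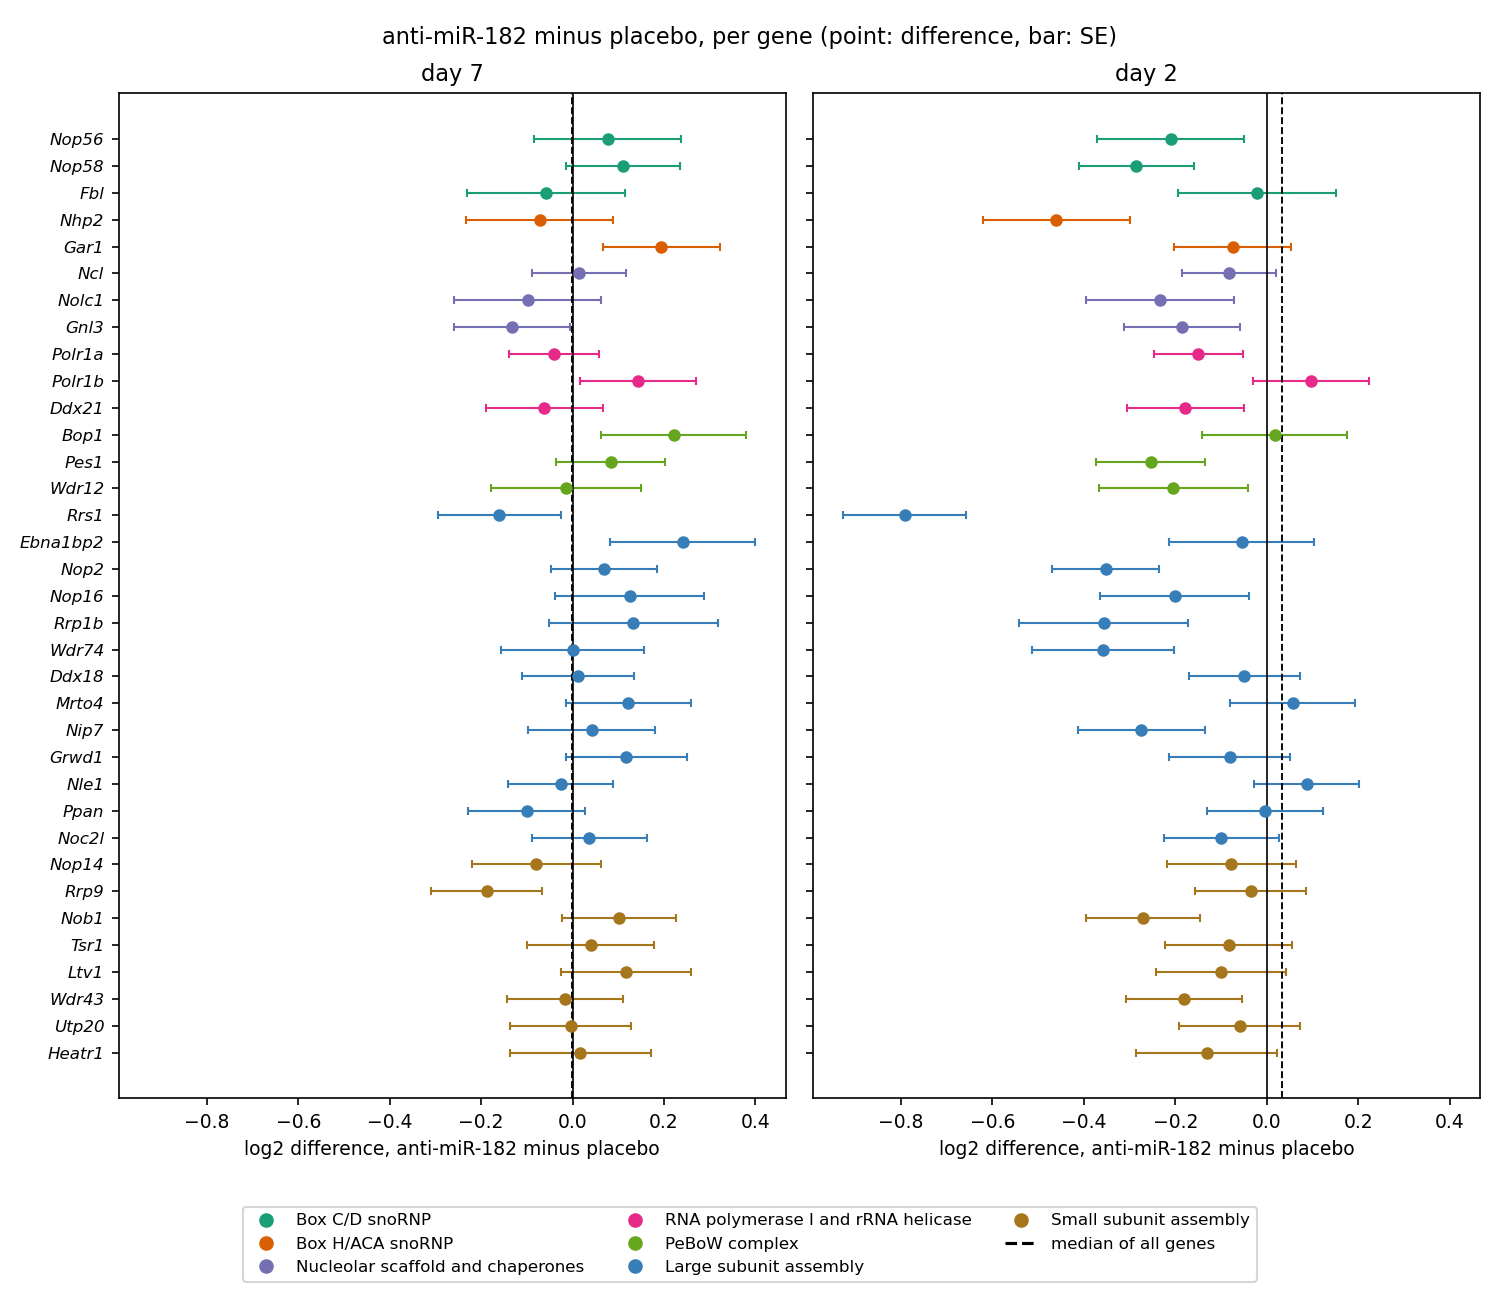
Log2 difference, anti-miR-182 minus placebo, of each of the 35 factors with its SE, by role, with day 7 in the left panel and day 2 in the right panel. The dashed line marks the median of all genes. At day 7 the points lie from −0.19 to 0.24 around 0, and at day 2 31 of 35 lie below 0, with Rrs1 at −0.79 lowest.

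Between day 7 and day 2 after injury, some biogenesis factors fell in each treatment, as did many other genes. Rrs1 is left out of these counts because its day 2 arrays chose it, and both time comparisons share day 2 arrays with the contrast used for that choice. The 190 control rows have no day 2 values, so the days may have been normalized apart, and day and processing run cannot be told apart. The median of all genes was −0.21 under anti-miR-182 and −0.18 in placebo, and the values of the factors are read against it.

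Under anti-miR-182, 6 of the 34 factors fell and 0 rose in limma's test across 18166 genes, where 24.9% of all genes fell and 2.68% rose. The share of factors, 17.6%, was below that background. The median difference of −0.21 was equal to that of all genes. Below 0 lay 27 of the 34, against 76.4% of all genes, and 12 of the 34 had separate groups with day 7 lower, against 35%. Noc2l, a nucleolar protein whose yeast counterpart acts in large subunit assembly, had 6.999, 6.88 and 6.91 at day 7 and 7.63, 7.62 and 7.25 at day 2, separate groups with a difference of −0.57 ± 0.13 (limma, adjusted p = 0.0057). Polr1b had 5.61, 5.88 and 5.67 at day 7 and 6.27, 6.37 and 6.12 at day 2, a difference of −0.54 ± 0.13 (limma, adjusted p = 0.00842). The differences were −0.51 ± 0.16 for Nhp2, −0.44 ± 0.14 for Tsr1, a small subunit factor, −0.39 ± 0.13 for Gnl3 and −0.36 ± 0.13 for Ppan. Their adjusted p-values in limma were 0.0311, 0.0329, 0.0364 and 0.0493.

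Noc2l and Polr1b passed with each of the 12 arrays left out in turn. The call of Ppan ended in 10 of these 12 cases, of Gnl3 in 5, of Nhp2 in 4 and of Tsr1 in 3. Nop56 missed the threshold at −0.45 ± 0.16 (limma, adjusted p = 0.0502). Rrs1, as a description, had 7.56, 7.27 and 7.75 at day 7 and 7.02, 6.86 and 7.07 at day 2, so that every day 7 signal was above every day 2 signal, with a difference of 0.54. The factors with values above 0 besides Rrs1 were Pes1, Gar1, Nop2, Nob1, Nop16, Grwd1 and Rrp1b, up to 0.28 for Rrp1b.

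In placebo, 13 of the 34 factors fell and 0 rose, where 23.7% of all genes fell and 4.22% rose. The share of factors that fell was 38.2%, and the median difference was −0.33, against −0.18 over all genes. Below 0 lay 32 of the 34, against 72% of all genes, and 25 had separate groups with day 7 lower, against 40%. The falls covered most roles: the box C/D proteins Nop56 and Nop58 but not Fbl, the box H/ACA protein Nhp2, the scaffold proteins Gnl3 and Ncl, the polymerase subunits Polr1a and Polr1b, the small subunit factors Tsr1, Ltv1 and Wdr43, and the large subunit factors Noc2l, Nip7 and Nop2. No PeBoW protein passed (0 of 3), with values of −0.32 for Pes1, −0.24 for Bop1 and −0.20 for Wdr12.

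Nhp2 fell most, with 6.61, 7.35 and 6.94 at day 7 and 7.90, 7.96 and 7.74 at day 2, a difference of −0.90 ± 0.16 (limma, adjusted p = 0.00184). Nop56 had 9.24, 9.89 and 9.42 at day 7 and 10.29, 10.19 and 10.29 at day 2, with no overlap and a difference of −0.74 ± 0.16 (limma, adjusted p = 0.00538). Noc2l had 6.76, 6.97 and 6.94 at day 7 and 7.64, 7.46 and 7.71 at day 2, a difference of −0.71 ± 0.13 (limma, adjusted p = 0.00179). In all 3 the groups were separate. The differences of Polr1b, Nop58 and Tsr1 were −0.58 ± 0.13, −0.58 ± 0.13 and −0.56 ± 0.14, with adjusted p-values in limma of 0.00547, 0.00526 and 0.0106. These 6 factors passed with each of the 12 arrays left out in turn. The other 7 that fell, Ltv1, Wdr43, Nip7, Gnl3, Polr1a, Nop2 and Ncl, had differences of −0.51 to −0.34. The count for placebo was 7, or 20.6% of the factors, without placebo day 7 replicate 1, against 16.3% of all genes. It was 8, or 23.5%, without placebo day 2 replicate 2 or replicate 3, against 15.2% and 15.7% of all genes. Rrs1 lay at −0.09, and at 0.18 after quantile normalization, with overlapping groups, 7.68, 7.56 and 7.82 at day 7 and 7.61, 7.84 and 7.87 at day 2. Grwd1 at 0.02 and Rrp9 at 0.14 were above 0.

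The counts depend on how the arrays are scaled. With each array centred on its median, 1 factor fell under anti-miR-182 (Noc2l) and 6 fell in placebo (Nhp2, Noc2l, Nop56, Nop58, Polr1b and Tsr1), against 7.44% and 9.62% of all genes. Their medians were then −0.02 under anti-miR-182 and −0.18 in placebo, where all genes lay at −0.02 and −0.03. With the 12 arrays quantile normalized together, 2 factors fell under anti-miR-182 (Noc2l and Polr1b) and 3 in placebo (Nhp2, Noc2l and Polr1b), against 7.62% and 7.9%, and the median under anti-miR-182 turned to 0.02. The share of factors that fell in placebo was then 8.82%, near that background. Over all genes, 4515 fell and 487 rose under anti-miR-182 as deposited, and 1351 fell and 1131 rose after centring. The corresponding counts in placebo were 4314 and 766 as deposited, and 1748 and 1480 after centring.

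Gnl3, Nhp2, Noc2l, Polr1b and Tsr1 fell in both treatments, 5 of the 34 or 14.7%, near the 16.3% of all genes that fell in both. No factor rose in both, against 1.77% of all genes. These 5 are 83.3% of the 6 factors called under anti-miR-182 and 38.5% of the 13 called in placebo, where the shares over all genes called were 65.7% and 68.8%. The time changes of the treatments were called different in limma for 0% of all genes, with an unadjusted p under 0.05 for 3.92%. No test of that difference is read for the factors, since it holds the day 2 contrast that chose Rrs1. The 6 macrophage genes had scores of 0.492 to 0.592 at day 7 and −0.161 to 0.155 at day 2 under anti-miR-182, and 0.452 to 1.86 at day 7 and 0.0744 to 0.110 at day 2 in placebo. The 6 fibroblast genes had scores of 1.39 to 1.61 at day 7 and 0.597 to 1.24 at day 2 under anti-miR-182, and 1.68 to 2.61 at day 7 and 0.959 to 1.23 at day 2 in placebo. The part of these cells in the falls was not tested.

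**Figure D3:**
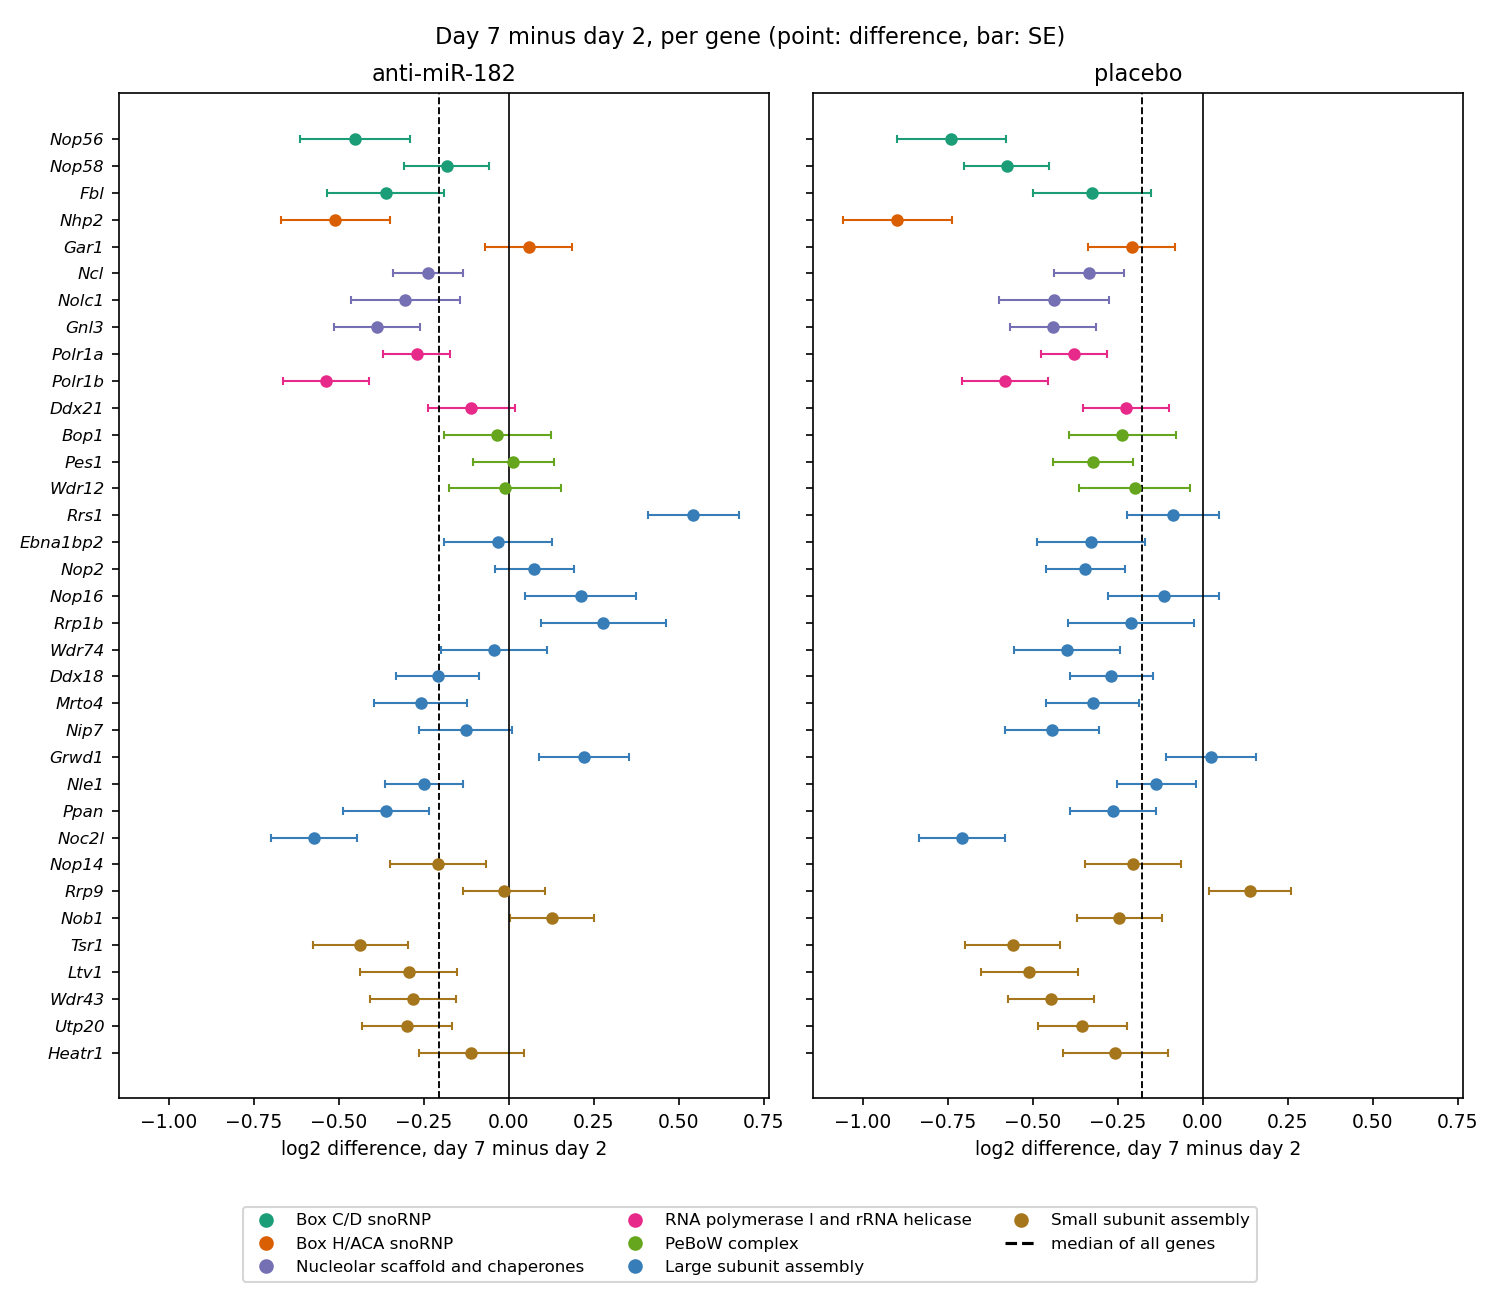
Log2 difference, day 7 minus day 2, of each of the 35 factors with its SE, by role, with anti-miR-182 in the left panel and placebo in the right panel. The dashed line marks the median of all genes, −0.21 under anti-miR-182 and −0.18 in placebo. Most placebo points lie left of that line, and Rrs1 under anti-miR-182 lies at 0.54.

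Under anti-miR-182, 19 of the 95 other biogenesis factors fell and 1 rose, with a median of −0.18; the 20% that fell is below the 24.9% of all genes. In placebo 39 fell and 1 rose, with a median of −0.32, and the 41.1% that fell is above the 23.7% of all genes. After centring, 6 fell and 3 rose under anti-miR-182, where the median turned to 0.0047, and 15 fell and 1 rose in placebo, so that 6.32% and 15.8% fell, against 7.44% and 9.62% of all genes. The gene that rose in both treatments as deposited was Rpf1, a large subunit factor. Under anti-miR-182 it had 8.61, 8.67 and 8.65 at day 7 and 7.98, 7.84 and 8.27 at day 2, a difference of 0.61 ± 0.12 (limma, adjusted p = 0.00329). In placebo it had 8.55, 8.51 and 8.54 at day 7 and 7.91, 8.13 and 8.16 at day 2, a difference of 0.47 ± 0.12 (limma, adjusted p = 0.0125). Utp3, a small subunit factor, fell, with differences of −0.72 ± 0.10 under anti-miR-182 and −0.96 ± 0.10 in placebo, with adjusted p-values in limma of 0.000446 and 7.68e-05. Polr1f, a subunit of RNA polymerase I, fell, with differences of −0.66 ± 0.12 under anti-miR-182 and −1.02 ± 0.12 in placebo and adjusted p-values in limma of 0.00251 and 0.000194.

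Among the ribosomal proteins, 4 of 56 fell and 1 rose under anti-miR-182, and 10 fell and 2 rose in placebo, with medians of −0.05 and −0.20. The shares that fell, 7.14% under anti-miR-182 and 17.9% in placebo, were below the 24.9% and 23.7% of all genes. After centring, 1 fell and 3 rose under anti-miR-182, where the median turned to 0.13. In placebo 4 then fell and 3 rose, with a median of −0.05. After quantile normalization the direction turned in both treatments. Under anti-miR-182 1 fell and 11 rose, and in placebo 0 fell and 6 rose, with medians of 0.25 and 0.10. Rpl11, which joins the ribonucleoprotein that Rrs1 handles, fell, with −0.52 ± 0.11 under anti-miR-182 (limma, adjusted p = 0.00431) and −0.69 ± 0.11 in placebo (limma, adjusted p = 0.000849). After quantile normalization neither passed, with adjusted p = 0.286 under anti-miR-182 and 0.0642 in placebo in limma. Rpl23a rose by 0.77 ± 0.10 under anti-miR-182 and 0.49 ± 0.10 in placebo, with adjusted p-values in limma of 0.000296 and 0.00416. Proliferation genes changed more: 15 of 16 fell in each treatment, with medians of −1.34 under anti-miR-182 and −1.44 in placebo. Mki67 fell, with −1.77 ± 0.21 under anti-miR-182 (limma, adjusted p = 0.000179) and −1.73 ± 0.21 in placebo (limma, adjusted p = 0.000181). Myc lay at 0.16 ± 0.19 under anti-miR-182 (limma, adjusted p = 0.541) and −0.070 ± 0.19 in placebo (limma, adjusted p = 0.807).

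**Figure D4:**
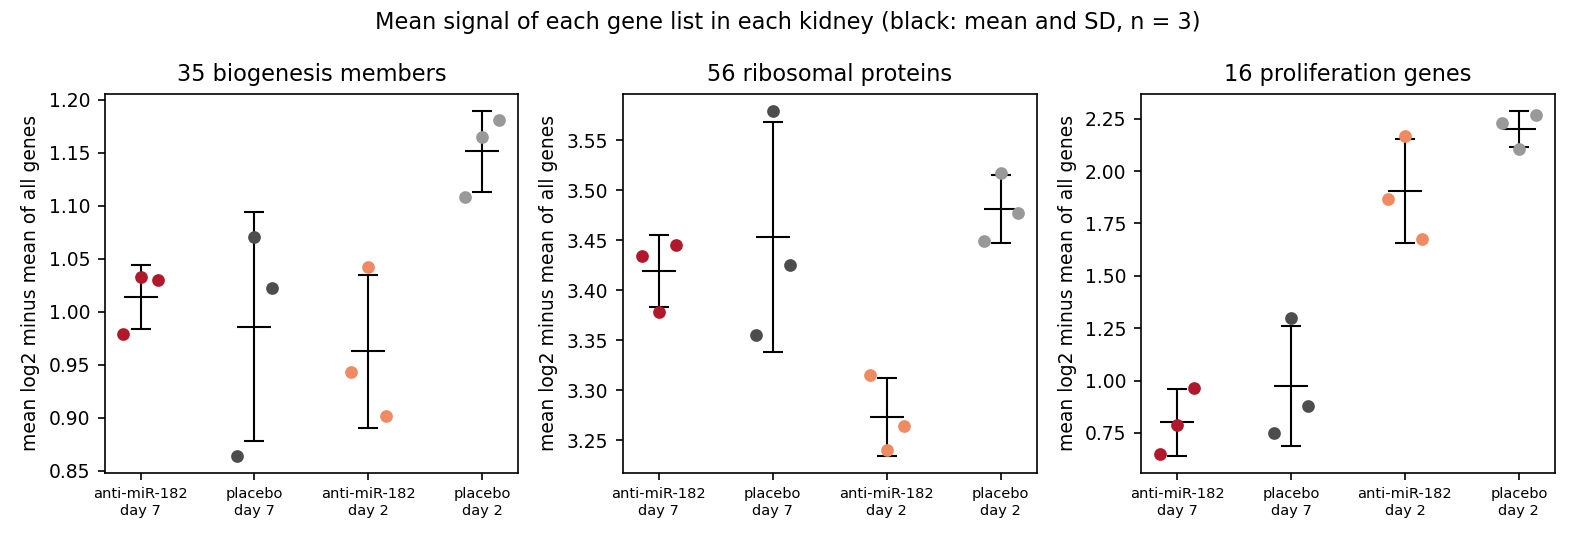
Score per array, the mean log2 signal of a list minus the mean of all genes, with 1 dot per animal, by treatment and day. The factors' scores, Rrs1 included, lie at 0.902 to 1.04 in anti-miR-182 kidneys at day 2, below the placebo kidneys of that day at 1.11 to 1.18.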

How the data were processed

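Total RNA from kidney (200 ng per sample) was amplified and biotin-labelled, per the labels' protocols. The authors deposited log2 signals, and the submitters' processing notes name RMA; the sources used here give no version. Values were used as deposited. Rows with 1 symbol gave 18166 genes; where a gene had several rows, its brightest on average was used. A model of 4 group means was fitted per gene in limma 3.58.1 (R 4.3.3) with eBayes, and a gene passed at a Benjamini-Hochberg adjusted p under 0.05 over all genes. Nothing in the labels gives the origin of the animals beyond 12 codes, and p-values measure the spread between these arrays, whose number limits the precision. The fit was tested on simulated data in which 200 of 18166 genes differed. Of log2 differences of 0.5 it recovered 25.4% for treatment at day 7, 27% for time in placebo and 27.2% for time under anti-miR-182. Of differences of 1 it recovered 81%, 85.8% and 88%. Treatment differences at day 7 of the size seen for most factors could thus go uncalled. In the data, 5080 genes were called over time in placebo and 5002 under anti-miR-182, far more than were changed in the simulation. Its rates therefore do not carry over to the time comparisons, where the share that goes uncalled was not tested. The members and lists were chosen with earlier results of these data known. Named are Rrs1, the lowest and highest differences of each comparison, and Myc, Rpf2, Rpl5, Rpl11 and Mki67. Of each further list, up to 3 genes with the smallest unadjusted p are named, so they are extremes of their list. Alternatives were another scaling, spread model, weights, filter on dim genes, row choice, covariate, threshold, and leaving out each array. Promoter and microRNA sequences are RefSeq's, GRCr8.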

Additional observations from a re-analysis of the deposited data

How the results depend on the processing

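For time under anti-miR-182, 6 of 34 factors fell as reported, where 24.9% of all genes did. The count was 3 with only the compared groups fitted (16.4% of all genes), 3 with every row tested (15.8% of rows), 11 with array weights (29%), 2 after quantile normalization (7.62%), 1 after centring on the array median (7.44%) and 0 with a log2 difference of 1 or more also required (1.5%). In placebo 13 fell as reported (23.7%), 3 after quantile normalization (7.9%), 6 after centring (9.62%) and 0 with that difference required (1.75%). Centring and quantile normalization remove the shift shared by all genes, and the size limit is past every factor's difference; the causes of the other changes were not tested. Leaving out 1 array gave 2 to 7 falls under anti-miR-182 (2 without day 2 replicate 2, day 7 replicate 1 or day 7 replicate 3, where 14.9%, 15.8% and 16.1% of all genes fell) and 7 to 16 in placebo. The day 2 treatment median, −0.13 as reported, was −0.21 to −0.11 with 1 array left out, with −0.21 without anti-miR-182 replicate 2, and −0.085 with array weights. Of the other alternatives, 99 of 108 main summary values and 368 of 414 other values (single genes, medians over time and counts over all genes) were kept. Kept means the same side of the threshold, a change within the spread or, for a count, a change of limited size. By this rule 19 falls in placebo, the highest count, were kept beside 13. The counts of factors called at day 7 and of rises with time were 0 in every alternative, and these are among the 99. No direction of a called value turned. No paired analysis was made, since each array came from a different coded animal. The labels carry no replicate numbers, and those used here follow the order of the samples. Each comparison rests on 3 arrays a group, which limits the precision of every difference.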

Other observations

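The row shared by Npm1, which encodes the abundant nucleolar chaperone nucleophosmin, and Npm1-ps9 had day 2 signals of 10.68, 10.82 and 10.55 in anti-miR-182 kidneys and 10.81, 10.98 and 10.94 in placebo kidneys, a difference of −0.23. At day 7 it had 10.53, 10.61 and 10.66 in anti-miR-182 kidneys and 10.24, 10.70 and 10.51 in placebo kidneys, a difference of 0.12. The 2 genes cannot be told apart on this row, and no test was made.

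Rows of the same factor did not always give the same size. The dimmer Nop56 row differed by −0.997 between day 7 and day 2 in placebo, against −0.74 on the row used, and the dimmer Polr1a row by −0.66, against −0.38. The dimmer Ddx21 row lay at −0.41, against −0.23, and the dimmer Ncl row at −0.28, against −0.34. In the day 2 treatment contrast the dimmer Polr1a row lay at −0.024, against −0.15. The dimmer rows of Nop56, Ddx21 and Ncl lay at −0.55, −0.29 and −0.19 there, against −0.21, −0.18 and −0.084.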
